A study of Mus musculus with 18 samples.

Results

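The genes described here are 9 secreted growth factors and receptors of the fibroblast growth factor (FGF) and hepatocyte growth factor (HGF) systems: the ligands Fgf2, Fgf7, Fgf10, Fgf18, Fgf21 and Hgf, and the receptors Fgfr1, Fgfr2 and Met. The 9 were taken by name as members of these systems, with earlier results of these data known, and all were found among the 55401 gene identifiers of the count table. FGFs are ligands of receptor tyrosine kinases. Most bind heparan sulphate on the cell surface and in the matrix, which holds them close to the cell and stabilises the complex of ligand and receptor. FGF21 belongs to the endocrine branch of the family, which binds heparan sulphate weakly and needs a Klotho co-receptor. HGF is secreted as an inactive precursor, is cut by serine proteases, and then activates MET. Both systems signal through the RAS-ERK pathway, whose negative feedback includes the Sprouty and DUSP proteins. In connective tissue, fibroblasts make FGF7, FGF10 and HGF, which act on neighbouring epithelial cells that carry the FGFR2-IIIb isoform and MET.

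Poly(A) RNA of 18 cultures of mouse embryonic fibroblasts (MEFs), primary cells grown from mid-gestation embryos, was measured by RNA-seq in 6 groups of 3 libraries, to learn how loss of the ribosomal S6 kinases S6K1 and S6K2 alters senescent cells. In the S6K1 series, S6K1 wild-type (WT) cells carried an empty retroviral vector (EV) or a vector for constitutively active RAS, and S6K1 knockout (KO) cells carried RAS. In the S6K1/S6K2 series, WT cells carried EV or RAS, and S6K1/S6K2 double knockout (DKO) cells carried RAS. Primary fibroblasts given oncogenic RAS become senescent: they stop dividing for good and secrete many factors. By the methods of the study, S6K1 WT and KO embryos were littermates and independent mothers were used, whereas DKO embryos came from S6K1+/- S6K2-/- breeding pairs and their WT controls from other matings, so that genotype and litter cannot be told apart in the DKO comparison. All cultures underwent retroviral infection. The methods name pBABEpuro EV or MSCV-neo vectors for RAS, and puromycin for selecting the infected MEFs, so which backbone carried RAS is not clear. The backbone may differ between the EV and RAS cells, and an effect of the backbone then cannot be told apart from that of RAS. KO or DKO cells with EV were not analysed here, so each loss of S6K was compared among RAS cells only, and each RAS comparison shares its WT RAS libraries with the loss comparison of the same series.

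Total counts were between 8319445 and 14402442 per library, so that 3 counts, the limit a count of 0 allows, were worth 0.208 to 0.361 counts-per-million (CPM). Intervals of this kind cover counting error only. The targeted genes followed the labels: Rps6kb1 (S6K1) counts gave 61.6 to 74.6 CPM with WT and 23.6 to 37.0 CPM with KO under RAS in the S6K1 series (adjusted p = 0.234, and 0.000101 with the replicate number as a block, edgeR). Under RAS in the S6K1/S6K2 series they gave 75.5 to 83.7 CPM with WT and 34.5 to 39.7 CPM with DKO (adjusted p = 0.00908, edgeR). Part of the Rps6kb1 counts thus remained in KO and DKO cells. Rps6kb2 (S6K2) counts gave 24.1 to 28.9 CPM with WT and 2.68 to 3.04 CPM with DKO (adjusted p = 7.44e-05). Hras rose with RAS in both series (log2 fold change 0.93 and 0.75, adjusted p = 0.0029 and 0.00568, edgeR quasi-likelihood). All 8 fibroblast markers were detected in every group, and their summed level was 29900 to 47700 CPM in the EV libraries and 13200 to 17900 CPM in the WT RAS libraries. The sum of 8 macrophage markers was uneven, at 2180, 1710 and 449 CPM in the S6K1 WT EV libraries, 2520, 2420 and 548 CPM with RAS, and 629, 551 and 195 CPM with RAS and KO. For the S6K1/S6K2 series these sums were 979, 116 and 146 CPM, then 745, 156 and 207 CPM with RAS, and 178, 65.4 and 81.7 CPM with RAS and DKO. The sum of 6 epithelial markers was 8.40 to 18.2 CPM in EV and 120 to 167 CPM in WT RAS libraries. Below, the values of each gene are given by replicate number, for WT libraries with EV, WT libraries with RAS, and KO or DKO libraries with RAS. In bulk RNA, fewer cells of a type and less RNA per cell cannot be told apart.

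The bases before the annotated starts of 3 of these genes are shown. With RAS, Fgfr2 had an adjusted p under 0.05 (edgeR) in both series and Fgf2 in the S6K1/S6K2 series. Hgf passed only in some other settings of the S6K1 series. Met also passed in the S6K1/S6K2 series but is not shown, because its window lies inside its annotated span. Sequences and positions are from RefSeq, build GRCm38.p6, on the strand of the gene, 5′ to 3′. Capitals would mark a match to AP-1 (TGANTCA), CRE (TGACGTCA), SP1 (GGGCGG) or a TATA box (TATAAA) on either strand. These were found in the 250 bases before the start of 6.75%, 1.55%, 32.7% and 12.4% of 32851 promoters. None of the 3 stretches holds any of the 4.
Fgf2, chr3:37348403-37348476 (+): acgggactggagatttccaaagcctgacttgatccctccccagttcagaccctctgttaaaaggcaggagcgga
Fgfr2, chr7:130266809-130267058 (-): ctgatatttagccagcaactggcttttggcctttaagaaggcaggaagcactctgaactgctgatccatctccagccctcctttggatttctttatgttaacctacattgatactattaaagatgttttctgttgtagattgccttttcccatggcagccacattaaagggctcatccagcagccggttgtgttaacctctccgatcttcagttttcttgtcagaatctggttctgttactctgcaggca
Hgf, chr5:16553245-16553494 (+): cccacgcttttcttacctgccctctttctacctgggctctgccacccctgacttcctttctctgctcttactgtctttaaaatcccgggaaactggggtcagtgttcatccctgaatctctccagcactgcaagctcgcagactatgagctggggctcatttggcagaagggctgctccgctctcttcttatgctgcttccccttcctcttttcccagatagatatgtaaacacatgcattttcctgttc
The Fgf2 stretch is 74 bases long because the rest of its 250-base window lies within the annotated gene (chr3:37348477-37410106), and that rest holds 1 SP1 match. Over the full 250 bases before their starts, Fgf10 and Fgf18 have 1 SP1 match each, Fgf21 has 3 and a TATA box 28 bases before the window's end, and Met has 3 SP1 matches and 1 AP-1 match in a window inside its annotated span. An entry was matched for 8 of the 9 genes, Fgfr1 being the exception.

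Fgf2 (ENSMUSG00000037225.13), basic FGF, is a mitogen of fibroblasts and endothelial cells that leaves the cell without a signal peptide. S6K1 series libraries held 52.0, 50.7 and 84.3 CPM with EV, 66.0, 49.0 and 145 CPM with RAS, and 202, 162 and 184 CPM with RAS in the KO libraries. The EV and RAS values overlapped, with replicate 3 the highest in each of those groups, and the 3 KO values all lay above WT RAS. The S6K1/S6K2 libraries held 58.7, 71.4 and 71.3 CPM with EV, 302, 310 and 236 CPM with RAS, and 395, 372 and 320 CPM with RAS in the DKO libraries. The 3 groups of that series did not overlap. Its reads share the locus with Nudt6, a gene with 20 to 44 counts per library whose annotated span covers 5125 bases of Fgf2. The strand setting of the counting is not given in the sources used here.

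Fgf7 (ENSMUSG00000027208.14), keratinocyte growth factor, passed the threshold in none of the comparisons. S6K1 series libraries held 54.8, 33.1 and 43.7 CPM with EV, 47.2, 51.2 and 54.8 CPM with RAS, and 57.9, 55.2 and 61.0 CPM with RAS in the KO libraries. The S6K1/S6K2 series lay between 50.3 and 88.1 CPM in all 9 libraries, and its 3 groups overlapped.

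Fgf10 (ENSMUSG00000021732.14), a mesenchymal ligand needed for limb and lung budding, varied more between same-group libraries than between groups. The S6K1 series gave 10.6, 15.8 and 42.8 CPM with EV, 4.61, 7.01 and 21.7 CPM with RAS, and 5.91, 8.43 and 23.5 CPM with RAS in the KO libraries. For the S6K1/S6K2 series the values were 21.6, 42.4 and 66.3 CPM with EV, 11.9, 32.4 and 47.6 CPM with RAS, and 12.8, 22.9 and 56.1 CPM with RAS in the DKO libraries. In all 6 groups the library numbered 3 was the highest and that numbered 1 the lowest, and WT RAS was below WT EV at each number.

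Fgf18 (ENSMUSG00000057967.12), which acts in cartilage and bone, was scarce. Its range in the S6K1 series was 1.49 to 2.29 CPM with EV, 1.96 to 4.21 CPM with RAS, and 2.55 to 2.99 CPM with RAS in the KO libraries. In the WT EV libraries of the S6K1/S6K2 series it was at 12.9, 0.97 and 1.14 CPM, in WT RAS at 5.19, 1.67 and 0.65 CPM, and in DKO RAS at 2.18, 1.93 and 3.07 CPM. The high EV value is that of replicate 1, which also had the highest macrophage and the highest fibroblast marker sum of its group (979 and 47700 CPM). The part of either in the value was not tested.

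Fgf21 (ENSMUSG00000030827.5), a metabolic hormone induced by stress, was close to the limit of detection. In the S6K1 series it had 0.84, 1.04 and 0.37 CPM with EV, 1.45, 1.79 and 0.32 CPM with RAS, and 0.09, 0.31 and 0.33 CPM with RAS in the KO libraries. In S6K1/S6K2 WT EV it had 21, 3 and 2 counts, in WT RAS 2, 1 and 3 counts, and in DKO RAS 0, 1 and 3 counts. All RAS and DKO values of that series were thus at or under the floor of 3 counts, and the gene passed the count filter in the S6K1 series only. Klb, the co-receptor of FGF21, had at most 1 count in any library.

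Hgf (ENSMUSG00000028864.7), a mesenchymal mitogen and motility factor for epithelial cells, stood in the S6K1 series at 12.4, 19.8 and 20.8 CPM with EV, 2.99, 5.14 and 10.3 CPM with RAS, and 3.18, 6.21 and 11.2 CPM with RAS in the KO libraries. The 3 EV values lay above all 6 RAS values. S6K1/S6K2 levels were 10.6, 18.1 and 30.5 CPM with EV, 13.1, 15.1 and 20.1 CPM with RAS, and 8.62, 12.9 and 11.4 CPM with RAS in the DKO libraries. There EV and RAS overlapped, and the 3 DKO values lay below the 3 WT RAS values, 12.9 against 13.1 CPM at the nearest.

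Among the receptors, Fgfr1 (ENSMUSG00000031565.18), the main FGF receptor of mesenchymal cells, stood in the S6K1 series at 463, 488 and 390 CPM with EV, 465, 523 and 435 CPM with RAS, and 394, 524 and 412 CPM with RAS in the KO libraries. Levels in the S6K1/S6K2 series were 550, 482 and 381 CPM with EV, 373, 352 and 322 CPM with RAS, and 326, 321 and 314 CPM with RAS in the DKO libraries. In that series each RAS value lay below each EV value.

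Fgfr2 (ENSMUSG00000030849.18) binds FGF7 and FGF10 through its epithelial IIIb isoform, while fibroblasts mostly make the IIIc isoform. The table counts the gene as a whole and does not separate the isoforms. S6K1 series libraries held 48.3, 54.6 and 79.2 CPM with EV, 9.56, 13.8 and 19.7 CPM with RAS, and 8.91, 11.8 and 17.3 CPM with RAS in the KO libraries. The S6K1/S6K2 series gave 184, 104 and 91.4 CPM with EV, 21.7, 27.2 and 19.5 CPM with RAS, and 9.51, 23.8 and 29.0 CPM with RAS in the DKO libraries. In both series every EV value lay above every RAS value.

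Met (ENSMUSG00000009376.15), the HGF receptor, stood in the S6K1 series at 23.1, 37.0 and 28.9 CPM with EV, 31.2, 38.5 and 47.1 CPM with RAS, and 34.2, 47.4 and 46.2 CPM with RAS in the KO libraries. The S6K1/S6K2 libraries held 18.2, 24.7 and 24.9 CPM with EV, 34.7, 51.0 and 38.4 CPM with RAS, and 44.4, 41.6 and 32.1 CPM with RAS in the DKO libraries. In that series the 3 EV values lay below all 6 RAS values.

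**Figure D1:**
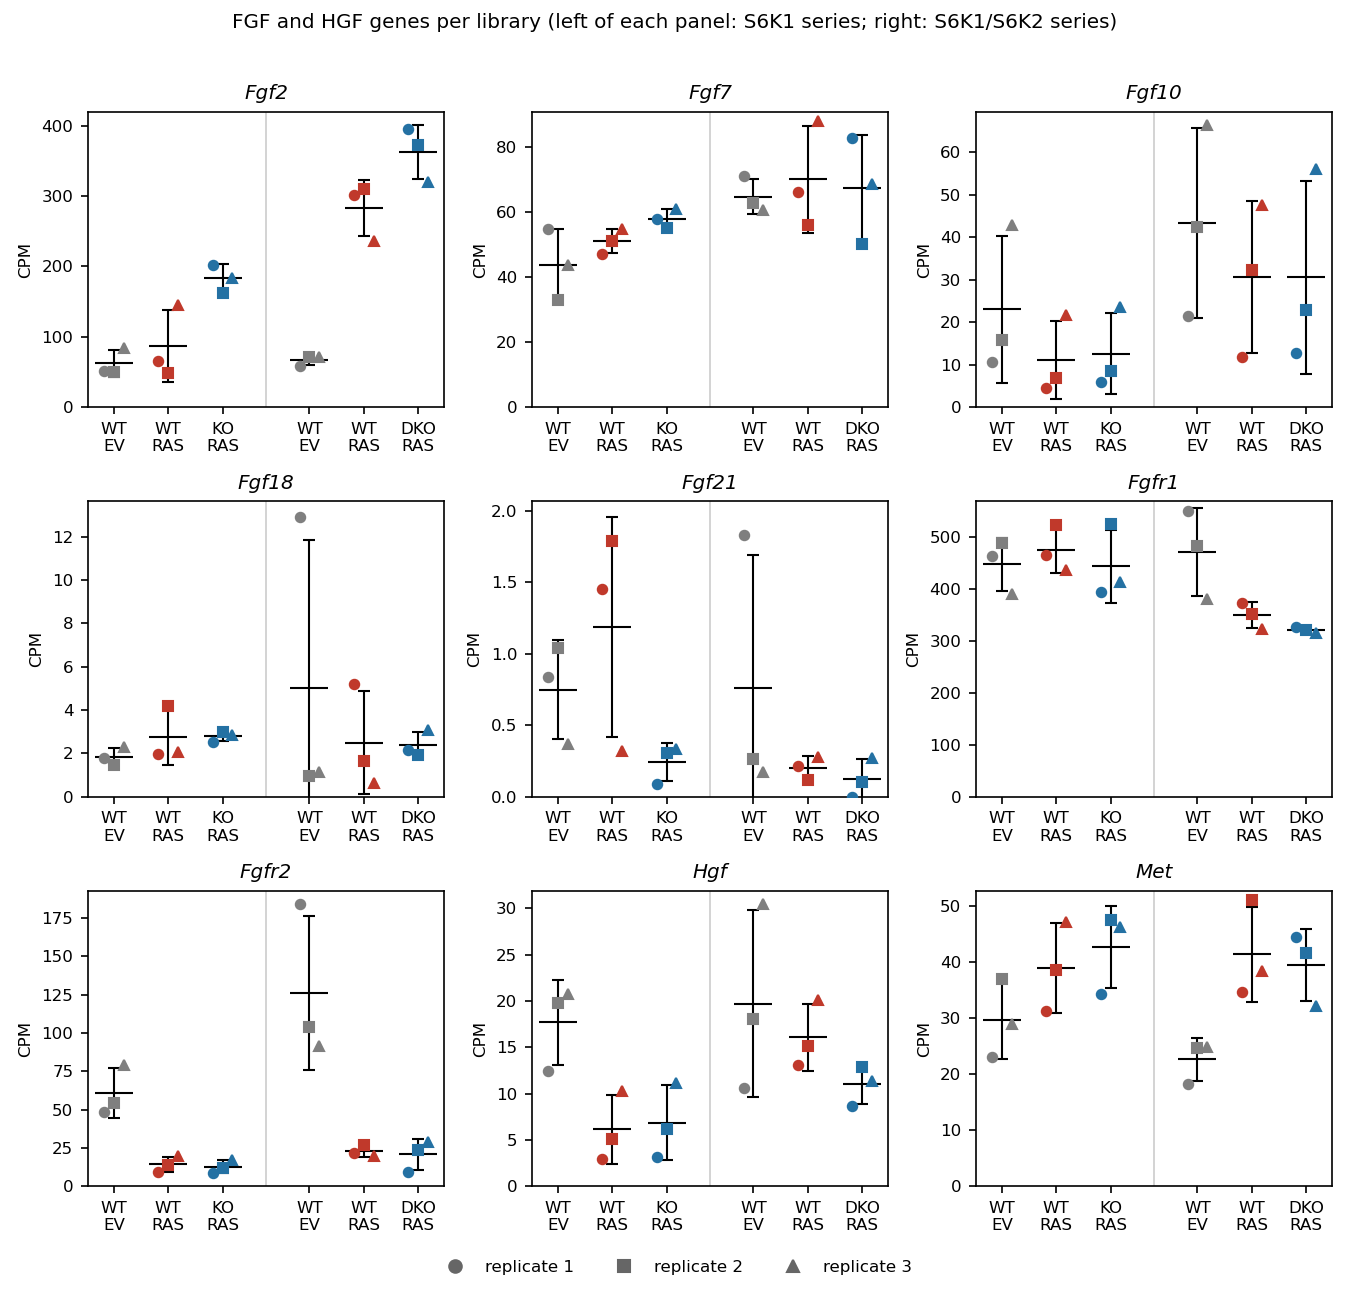
CPM of the 9 genes (vertical axes, linear, from 0) in the 6 groups (horizontal axes), the S6K1 series left and the S6K1/S6K2 series right of the grey line. Points are libraries, shaped by replicate number, and lines are mean ± SD (n = 3, clipped at 0). Fgfr2 stands at 48.3 to 184 CPM in the EV libraries and 9.56 to 27.2 CPM in the WT RAS libraries, and Fgf2 at 236 to 310 CPM in S6K1/S6K2 WT RAS against 49.0 to 145 CPM in S6K1 WT RAS.

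Per kilobase of exon, the order of levels changed with RAS. The lengths are of another annotation than the one used for counting, and the Fgf2 model used is short (1802 bases), so its level per kilobase may be too high against the others. In S6K1 WT EV cells the mean was 55.5 CPM per kilobase for Fgfr1, 34.6 for Fgf2, 13.5 for Fgf7, 7.79 for Fgfr2, 6.41 for Hgf, 5.01 for Fgf10, 3.84 for Met, 1.57 for Fgf18 and 0.805 for Fgf21. There Fgfr1, Fgf2 and Fgf7 did not overlap with the gene next below, whereas Fgfr2, Hgf, Fgf10 and Met each overlapped with a neighbour. In the EV cells of the S6K1/S6K2 series Fgfr1 was again above Fgf2, at 58.4 and 37.3 CPM per kilobase. In S6K1 WT RAS cells those 2 genes overlapped (58.9 and 48.0 CPM per kilobase). In the other 3 RAS groups Fgf2 stood above Fgfr1 without overlap, at 101, 157 and 201 CPM per kilobase in KO RAS, S6K1/S6K2 WT RAS and DKO RAS, against 55.0, 43.3 and 39.8 for Fgfr1. By its mean, Fgfr2 had rank 4 of 9 in both EV groups and rank 8 and 7 in the WT RAS groups of the S6K1 and S6K1/S6K2 series, but in each of these groups it overlapped with at least 1 neighbour, and in S6K1 WT RAS the genes of ranks 4 to 9 each overlapped with the next.

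RAS against EV in WT cells asks what the oncogene does to these genes. In the S6K1 series Fgfr2 fell 4.23-fold, and it was the only 1 of the 9 genes called by edgeR's quasi-likelihood test (log2 fold change -2.08, SE 0.32, adjusted p = 0.00322 over all genes). It was lower in 3 of 3 same-numbered pairs, at 60.7 ± 16.3 CPM in EV and 14.3 ± 5.08 CPM in RAS (SD, n = 3). For comparison, 13.2% of all 14036 genes tested were called here, and EV and RAS did not overlap for 30.9%, among them Fgfr2 and Hgf. Hgf was at 17.7 ± 4.6 CPM in EV and 6.14 ± 3.75 CPM in RAS (SD, n = 3), a log2 fold change of -1.52 (SE 0.51) that missed the threshold (adjusted p = 0.0858, edgeR). It passed with the replicate number as a block (log2 fold change -1.63, adjusted p = 0.000314), with DESeq2 (adjusted p = 0.0201) and without WT RAS replicate 3 (adjusted p = 0.0287). The same-numbered libraries of this series were taken as pairs, which the fit without the block does not use. The block also called Fgf10 (log2 fold change -1.09, SE 0.11, adjusted p = 5.33e-05 against 0.41 without it) and Met (0.40, SE 0.12, adjusted p = 0.0238 against 0.294). With the block 4 of the 9 genes were called, where 36.2% of all genes were.

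The other 5 genes of the S6K1 series did not pass in either fit. Fgf2 had a log2 fold change of 0.48 (SE 0.37), which was -0.12 without WT RAS replicate 3. Those of Fgf7, Fgf18, Fgf21 and Fgfr1 were 0.22, 0.57, 0.64 and 0.086.

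Of the 8 genes tested in the S6K1/S6K2 series, 3 were called with RAS, beside 26.3% of all 13881 genes. EV and RAS did not overlap for 4 of the 8 (Fgf2, Fgfr1, Fgfr2 and Met), beside 42.5% of all genes. Fgf2 rose 4.21-fold (log2 fold change 2.07, SE 0.16, adjusted p = 8.85e-05), from 67.1 ± 7.33 to 283 ± 40.4 CPM (SD, n = 3), and was higher in 3 of 3 pairs. Fgfr2 fell 5.56-fold (log2 fold change -2.47, SE 0.39, adjusted p = 0.00211), from 126 ± 50.4 to 22.8 ± 3.95 CPM (SD, n = 3). Met rose 1.83-fold (log2 fold change 0.87, SE 0.20, adjusted p = 0.0107), from 22.6 ± 3.83 to 41.3 ± 8.54 CPM (SD, n = 3). Fgfr1 was 1.35-fold lower and lay just outside the threshold (log2 fold change -0.43, SE 0.15, adjusted p = 0.0558). With the replicate block 5 of the 8 were called, where 28.7% of all genes were, the additions being Fgf10 (log2 fold change -0.56, adjusted p = 0.0419) and Fgfr1 (-0.42, adjusted p = 0.0465).

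Hgf, which was lower in all RAS libraries of the S6K1 series, moved by -0.29 on the log2 scale here (SE 0.35, adjusted p = 0.558, edgeR). Fgf7 had one of 0.12 (SE 0.21). That of Fgf18 was -1.01 (SE 0.98) and became 1.22 without WT EV replicate 1, the library with 12.9 CPM.

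Beside these changes, 4 of 8 fibroblast markers fell with RAS in each series. Of the 6 epithelial markers 4 were tested, and 3 of these rose in the S6K1 series and 4 in the S6K1/S6K2 series. Over all genes, 13.2% and 26.3% were called in either direction. Markers of endothelial, skeletal muscle and neural cells were also among those called. The part of these markers in the changes of Fgf2, Fgfr2, Hgf and Met was not tested. No macrophage marker was called in either RAS comparison.

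Whether RAS acted differently in the 2 series was tested over all 18 libraries, in a design where the series cannot be told apart from a batch. The log2 fold change of Fgf2 was higher by 1.59 in the S6K1/S6K2 series (SE 0.41), which did not pass (adjusted p = 0.187, edgeR). It passed with the block (1.66, adjusted p = 0.0432, beside 0.4% of all genes), with DESeq2 (1.60, adjusted p = 0.0260), with no filter (adjusted p = 0.00624) and without S6K1 WT RAS replicate 3 (2.16, adjusted p = 0.0192). Hgf differed by 1.22 (SE 0.65, adjusted p = 0.44) and with the block by 1.43 (adjusted p = 0.0727). No difference was called by edgeR for any of the 9 genes, 2 of which had an unadjusted p under 0.05, nor for any of 14483 genes (0%), of which 1819 had an unadjusted p under 0.05 and DESeq2 called 143. Fgfr2 fell in both series, and its difference between them was -0.40 (SE 0.52).

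**Figure D2:**
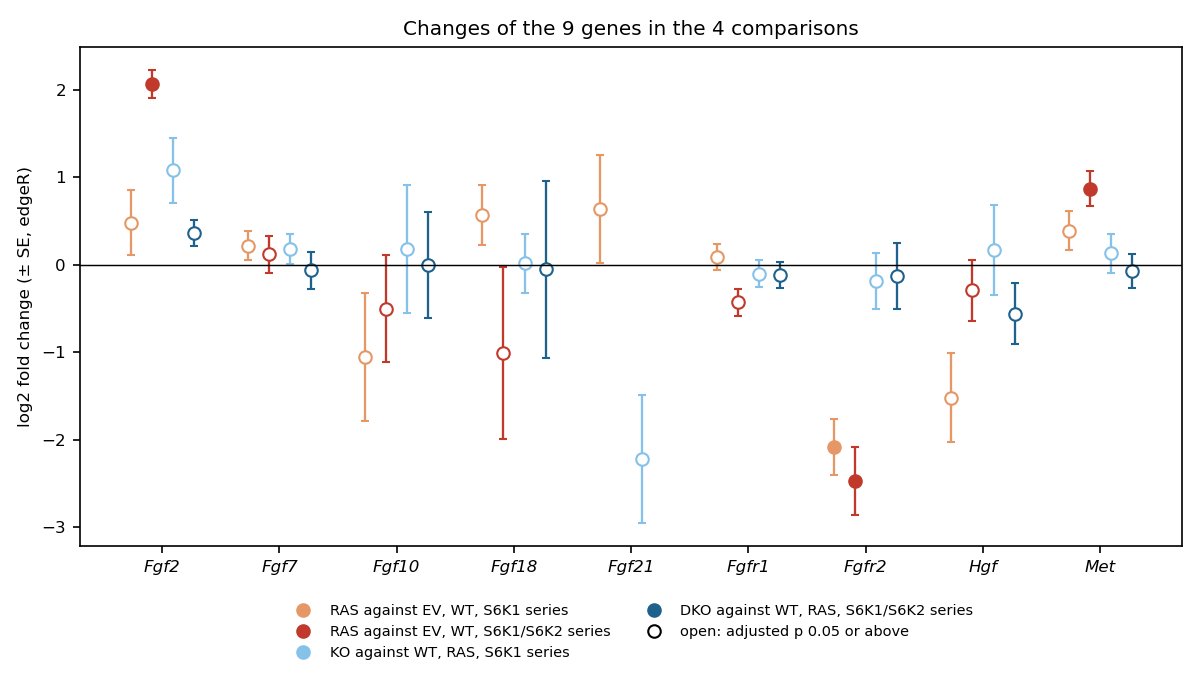
Log2 fold change (vertical axis, ± SE) of each of the 9 genes in the 4 comparisons (colours), filled where edgeR's adjusted p was under 0.05 without the replicate block. Fgfr2 is filled in both RAS comparisons (-2.08 and -2.47), Fgf2 (2.07) and Met (0.87) in that of the S6K1/S6K2 series, and no gene is filled in the KO or DKO comparison. Fgf21 was tested in the S6K1 series only.

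KO against WT among RAS cells asks what loss of S6K1 changes. None of the 9 genes was called by edgeR, beside 0.00712% of all genes, and DESeq2 also called none of them. An unadjusted p under 0.05 (edgeR) was found for 2 of the 9, beside 963 of all 14036 genes tested. Fgf2 was at 183 ± 20 CPM in KO and 86.6 ± 51.1 CPM in WT RAS cells (SD, n = 3). Its log2 fold change was 1.08 (SE 0.37), with an adjusted p of 0.587. The KO to WT ratio was 3.06, 3.31 and 1.27 in the 3 same-numbered pairs. The groups did not overlap for 2 of the 9 genes, Fgf2 and Fgf7, beside 8.02% of all genes tested. Fgf7 was at 55.2 to 61.0 CPM in KO and 47.2 to 54.8 CPM in WT RAS. Its difference of 0.18 on the log2 scale (SE 0.17) had an adjusted p of 0.997 by edgeR. With the replicate block Fgf2 was the only 1 of the 9 genes called (log2 fold change 1.22, SE 0.22, adjusted p = 0.0132), where 4.15% of all genes were. Without WT RAS replicate 3 the log2 fold change of Fgf2 was 1.67 (adjusted p = 0.0579). Macrophage markers summed to 548 to 2520 CPM in the WT RAS and 195 to 629 CPM in the KO RAS libraries. WT RAS replicate 3, with the highest Fgf2 of its group, had the lowest sum. None of the 8 markers was called, and their part in the Fgf2 value was not tested.

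Fgf21 averaged 1.19 ± 0.769 CPM among the WT and 0.244 ± 0.133 CPM among the KO libraries with RAS (SD, n = 3). Its log2 fold change of -2.22 (SE 0.73) did not pass (adjusted p = 0.587, and 0.0676 with the block). The lower value was seen in 2 of 3 pairs, and the 2 high WT RAS libraries were those with macrophage marker sums of 2520 and 2420 CPM. Their part in it was not tested. The other 7 genes had log2 fold changes between -0.18 (Fgfr2) and 0.18 (Fgf7 and Fgf10), with unadjusted p of 0.307 or above.

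DKO against WT among RAS cells asks the same of both kinases. None of the 8 genes tested was called by edgeR or DESeq2, beside 0.0216% of all genes by edgeR. Beside 179 of all 13881 genes tested, 1 of the 8 had an unadjusted p under 0.05 (edgeR). That gene was Fgf2, at 363 ± 38.4 CPM in DKO and 283 ± 40.4 CPM in WT RAS cells (SD, n = 3). Its log2 fold change was 0.36 (SE 0.15), with an adjusted p of 1.00 by edgeR. Each DKO value lay above each WT RAS value, so same-numbered libraries, which share only a number here, give no further support. Hgf was at 11 ± 2.16 CPM in DKO and 16.1 ± 3.62 CPM in WT RAS (SD, n = 3). Its log2 fold change was -0.56 (SE 0.35), with an adjusted p of 1.00 by edgeR. The groups did not overlap for Fgf2 and Hgf, as for 6.07% of all genes tested. The log2 fold changes of the other 6 genes were between -0.13 (Fgfr2) and -0.0012 (Fgf10), with unadjusted p of 0.429 or above. The loss effects of the 2 series did not pass as different for any of the 9 genes, beside 0.0069% of all genes. The nearest to it was Fgf2, whose log2 fold change was lower by 0.70 in the S6K1/S6K2 series (SE 0.41, adjusted p = 1.00, edgeR).

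**Figure D3:**
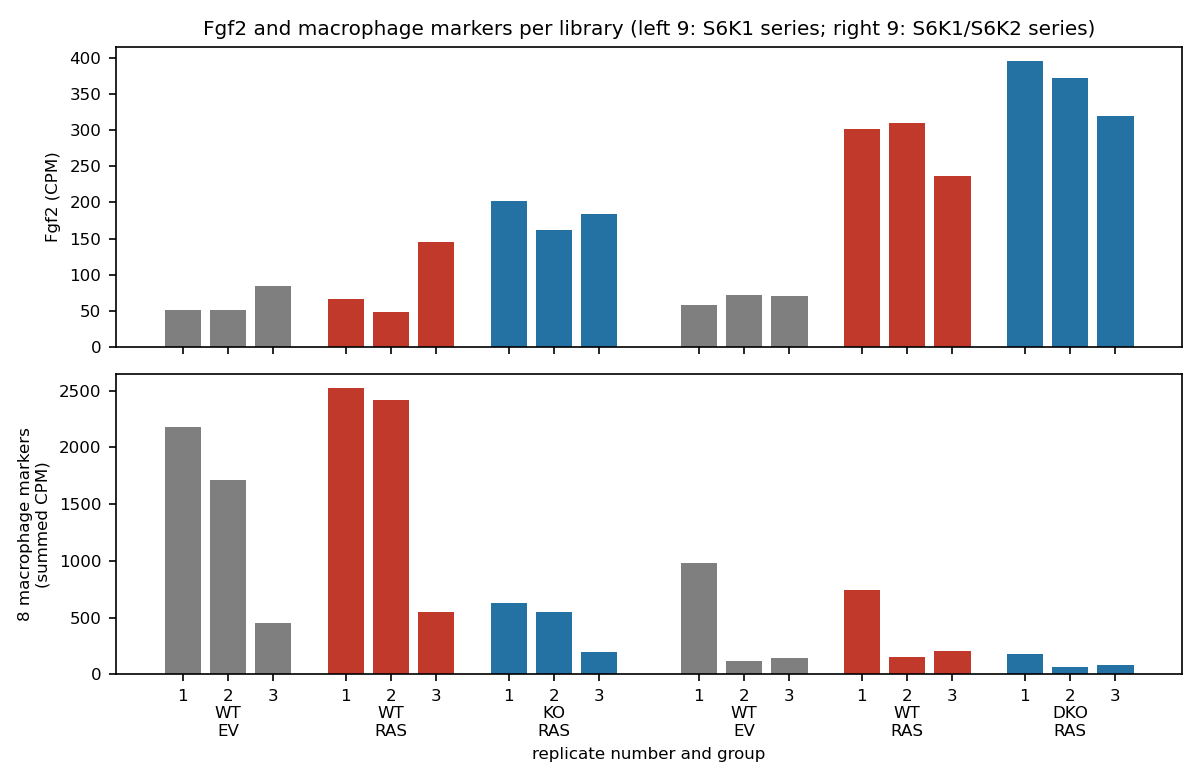
Fgf2 (upper bars, CPM) and the summed CPM of 8 macrophage markers (lower bars) in each of the 18 libraries, in the same order. In the S6K1 series WT RAS replicates 1 and 2 have 66.0 and 49.0 CPM of Fgf2 and marker sums of 2520 and 2420 CPM, while replicate 3 has 145 and 548 CPM. The S6K1/S6K2 WT EV libraries have 58.7 to 71.4 CPM of Fgf2 at sums of 116 to 979 CPM.

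The rest of the pathway was followed through 74 listed genes in 6 lists. With RAS, 17 of the 55 tested in the S6K1 series were called (11 higher, 6 lower), or 30.9% beside 13.2% of all genes. With the replicate block 31 of the 55 were called, beside 36.2% of all genes. In the S6K1/S6K2 series 20 of 56 were called (12 higher, 8 lower), or 35.7% beside 26.3% of all genes. None was called with KO or DKO, in the fits with and without the block. Without replicate 2 of WT EV or WT RAS the S6K1 count was as low as 11, and without WT RAS replicate 2 that of the S6K1/S6K2 series was 12. Calls over all genes fell in the same fits. They went from 1859 to 1136 and 1043 in the S6K1 series and from 3646 to 2050 in the S6K1/S6K2 series. The median log2 fold change of the list was -0.01 and 0.25 with RAS, beside 0.0018 and -0.0241 over all genes.

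The feedback and target genes of FGF signalling held the most called genes, all higher with RAS. They were 7 of 11 in the S6K1 series (63.6%, beside 13.2% of all genes called in either direction) and 6 of 11 in the S6K1/S6K2 series (54.5%, beside 26.3%). In the S6K1 series 4 of the 11 had a log2 fold change below 0, and in the S6K1/S6K2 series 1 did. With the block, 1 gene of the list was called as lower in the S6K1 series. Spry1, which was not called without the block, was at 64.4 to 97.2 CPM in S6K1 WT EV and 40.8 to 62.3 CPM in WT RAS. The genes of this list also answer to RAS-ERK signalling from other sources. Dusp6, an ERK phosphatase, rose from 24.6 to 66.3 CPM in S6K1 WT EV to 202 to 256 CPM in WT RAS (log2 fold change 2.13, adjusted p = 0.00266). Its log2 fold change in the S6K1/S6K2 series was 3.28 (adjusted p = 3.25e-05). The Sprouty gene Spry4 rose by 2.04 and 2.74 and the transcription factor Etv4 by 1.96 and 2.31 on the log2 scale in the S6K1 and S6K1/S6K2 series (adjusted p between 0.000314 and 0.00109). Spry2 rose in the S6K1 series (1.02, adjusted p = 0.00894) and had a log2 fold change of 0.42 in the other (adjusted p = 0.104).

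Among proteases that can act on HGF, their inhibitors and the HGF and MET paralogs, 4 of 7 rose in the S6K1 series (57.1%, beside 13.2% of all genes called in either direction) and 3 of 6 in the S6K1/S6K2 series (beside 26.3%). None passed as lower, though 2 of the 6 tested in the S6K1/S6K2 series had a log2 fold change below 0. Plau, the urokinase protease, was at 120 to 191 CPM in S6K1 WT EV and 986 to 1480 CPM in WT RAS (log2 fold change 3.10, adjusted p = 0.000668), and its log2 fold change in the S6K1/S6K2 series was 3.84 (adjusted p = 0.00133). St14, the protease matriptase, rose by 1.53 and 2.30 on the log2 scale (adjusted p = 0.00171 and 0.00239). The inhibitor Spint2 rose beside it by 1.18 and 1.56 (adjusted p = 0.00797 and 0.00202). The inhibitor Spint1 was called in the S6K1 series (adjusted p = 0.0291), at no more than 3 counts in each EV library and 0.598, 3.50 and 0.884 CPM in WT RAS.

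Of 19 tested heparan sulphate and FGF-binding genes, 5 fell in the S6K1 series (26.3%, beside 13.2% of all genes called). In the S6K1/S6K2 series 4 fell and 1 rose, a share of 26.3% that equals the 26.3% of all genes called there. With the replicate block 13 of the 19 were called in the S6K1 series (2 higher, 11 lower), beside 36.2% of all genes. In the S6K1/S6K2 series the block called 8 (2 higher, 6 lower), beside 28.7%. The glypican Gpc3, a heparan sulphate proteoglycan, was at 51.9 to 112 CPM in S6K1 WT EV and 12.3 to 24.8 CPM in WT RAS (log2 fold change -1.87, adjusted p = 0.0434), with -2.24 in the S6K1/S6K2 series (adjusted p = 0.00517). Gpc4 fell by 1.27 and 0.65 (adjusted p = 0.00236 and 0.0314), and Sulf1, which removes sulphate groups that FGFs bind, by 1.48 and 1.06 (adjusted p = 0.0444 and 0.0307). Gpc6 fell in the S6K1 series (-1.70, adjusted p = 0.0229) and had a log2 fold change of -0.80 in the other (adjusted p = 0.0655, and 0.00794 with the block).

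Of the other FGF ligands, 5 and 7 of 17 were tested and 1 fell in each series. The 1 of 5 in the S6K1 series stands beside 13.2% of all genes called, and the 1 of 7 in the S6K1/S6K2 series, or 14.3%, beside 26.3%. In the S6K1 series the gene was Fgf13, an intracellular FGF homolog (log2 fold change -0.85, adjusted p = 0.0458). The S6K1/S6K2 gene was Fgf12, of the same subgroup, at 1.75, 1.5 and 1.14 CPM in WT EV and 1 count in each WT RAS library (adjusted p = 0.00626). Of the other receptors and co-receptors, 2 of 5 were tested. Neither was called in the S6K1 series, and in the S6K1/S6K2 series Fgfr3 (log2 fold change -2.06, adjusted p = 0.0171) and Fgfrl1 (-0.43, adjusted p = 0.0490, and 0.0579 with the block) fell. Fgfr3 was scarce there, with 60, 42 and 19 counts in WT EV and 5, 8 and 11 counts in WT RAS. Of 11 receptor adaptors, none was called in the S6K1 series (4 with the block, beside 36.2% of all genes) and 3 in the S6K1/S6K2 series. The latter share, 27.3%, was close to the 26.3% of all genes. The 3 were Gab1, the docking protein downstream of MET (-0.77, adjusted p = 0.0035), Sos1 (0.48, adjusted p = 0.0376) and Grb2 (0.37, adjusted p = 0.0303).

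**Figure D4:**
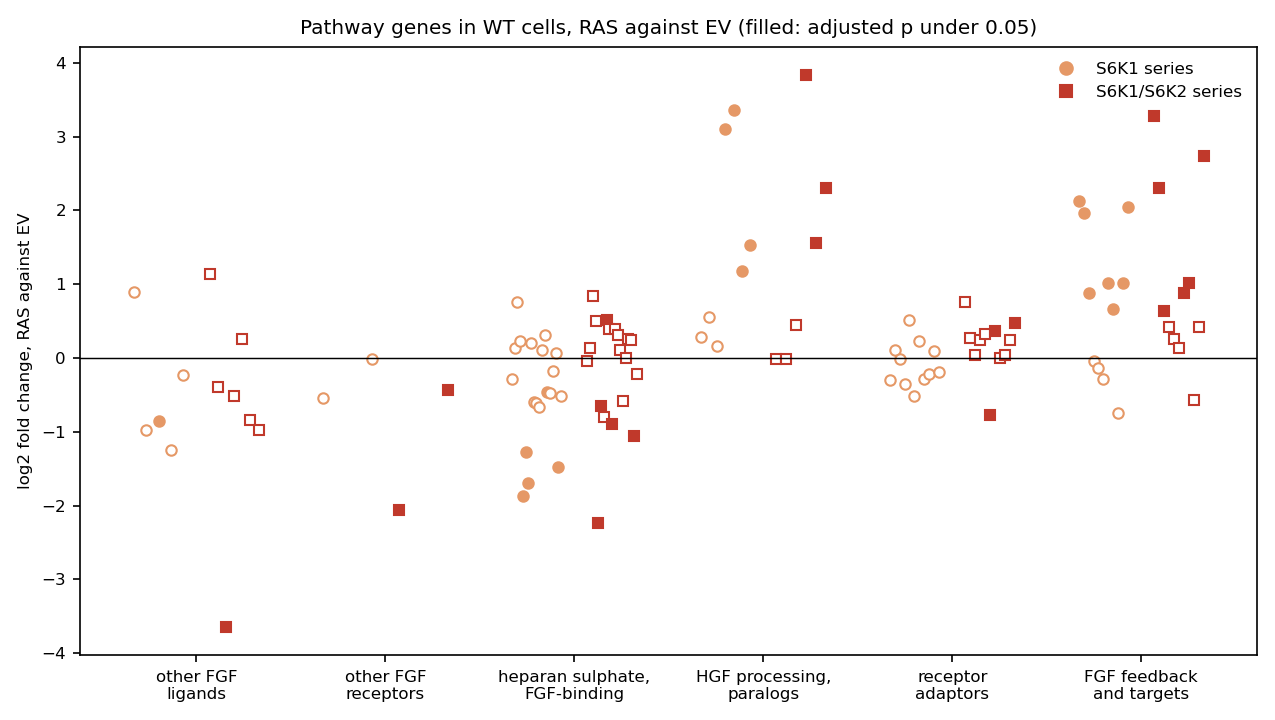
Log2 fold change with RAS (vertical axis) of each tested gene of the 6 lists (horizontal axis), circles for the S6K1 and squares for the S6K1/S6K2 series. Points are filled where edgeR's adjusted p was under 0.05 without the replicate block. The filled points of the feedback and HGF processing lists lie above 0, and those of the other FGF ligands and receptors below 0.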

How the data were processed

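RNA of 18 MEF cultures was sequenced as single-end reads of 50 bases from stranded libraries, and the authors deposited raw counts per gene and library. The methods of the study name mm9, TopHat and HTSeq, whereas the submitters' processing notes name STAR 2.7.1a, mm10, CASAVA and DESeq2 1.28.1. The annotation and strand setting of the counting are not given in the sources used here. Groups and replicate numbers were read from the sample titles. Of 55401 identifiers, 32589 had a symbol, and these held 99.1% of counts. A chi-square test of 18 replicate pairs gave at least 8.62 per degree of freedom, so no pair of libraries in a group differed by counting error alone. The test cannot show that libraries are independent. Each library was counted as 1 sample.

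Counts were tested in R 4.3.3 with edgeR 4.0.16 (filterByExpr with minimum count 10, TMM, two-sided quasi-likelihood test, Benjamini-Hochberg adjustment over all genes tested, threshold 0.05), with the 9 libraries of each series in 1 fit and no term but the group. That fit leaves out the pairing of same-numbered libraries, which the fit with the replicate block uses. Differences between the series were fitted over 18 libraries. Every adjusted p in the text is of this kind unless named otherwise. The scripts were tested on simulated data. Levels are CPM scaled within each series. The alternatives were DESeq2 1.42.0, its size factors, upper-quartile scaling, a count of 10 or more required in each library, no filter, fits to 6 or 18 libraries, the replicate number as a block, and leaving out each library. Exon lengths came from the GENCODE annotation of NCBIM37, and positions and promoters from RefSeq GRCm38.p6.

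The genes, lists and tests were chosen with earlier results of these data known. Beside the 9 genes, up to 4 called genes of each pathway list are named, those with the largest change in a comparison where they were called, and for each of the 9 tested in both series the 2 genes most correlated with it. Same-numbered libraries are taken to share a WT line (RAS and EV) or a litter (KO and WT). Their deviations from the group means correlated at 0.684, 0.444 and 0.668 between EV and RAS of the S6K1 series, at 0.692, 0.393 and 0.616 between its WT and KO RAS cells, and at 0.366, 0.293 and 0.308 between EV and RAS of the S6K1/S6K2 series, so they were taken as pairs.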

Additional observations from a re-analysis of the deposited data

How the results depend on the processing

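The fall of Fgfr2 with RAS in both series and the rises of Fgf2 and Met in the S6K1/S6K2 series passed the threshold under all 8 other settings and without each compared library (highest adjusted p 0.0466, for Met, edgeR). Low counts limit Fgf18 and Fgf21. With the replicate block, the number of the 9 genes called with RAS was 4 in place of 1 in the S6K1 series and 5 in place of 3 in the S6K1/S6K2 series, that called with KO was 1 in place of 0, that for the difference of the RAS effect was 1 in place of 0, and the pathway genes called in the S6K1 series were 31 in place of 17. In the DKO comparison the block changed no call of the 9 genes or the pathway genes. Over all 13881 genes it called 8 in place of 3. Same-numbered libraries correlated there at 0.279, 0.454 and -0.035 and share only a number. Of the 9 genes, 2 were called in the S6K1 RAS comparison with DESeq2, no filter or all 18 libraries, the addition being Hgf. Over all genes the calls there were 2468 of 14036, 2043 of 27614 and 2057 of 14483, in place of 1859 of 14036. For the difference of the RAS effect 1 of the 9 was called with DESeq2 or no filter. Over all genes those fits called 143 of 14483 and 204 of 30065, in place of 0. The cause was not tested.

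Some values near 0 that were never called changed sign. Fgf18 in KO cells was -0.0077 with upper-quartile scaling, -0.0036 with 6 libraries and -0.0094 with 18. Fgf10 in DKO cells was 0.0035 with upper-quartile scaling and 0.011 with no filter. With the block, Fgf18 was 0.52 in DKO cells and 0.45 for the difference of the loss effect. That difference for Fgfr1 was -0.0008 with DESeq2, -0.00078 with its size factors, -0.0048 with upper-quartile scaling, -0.0079 with no filter and -0.0036 where each library needed 10 counts or more.

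Leaving out each library in turn, the 9 genes gave 1 to 2 calls with RAS in the S6K1 series (2 without WT RAS replicate 3) and 0 to 1 for the difference of the RAS effect (1 without the same library). Without that library, 1818 of 14243 and 2 of 14838 of all genes were called in these comparisons. Pathway calls were 11 to 18 in the S6K1 series, lowest without replicate 2 of EV or RAS, and 12 to 20 in the S6K1/S6K2 series, lowest without WT RAS replicate 2. Calls over all genes were 1136 and 1043 in these S6K1 fits and 2050 in that of the S6K1/S6K2 series. Log2 fold changes with RAS spanned 0 for Fgf2 (-0.12 to 0.77) and Fgfr1 (-0.0049 to 0.16) in the S6K1 series, and for Fgf7 (-0.081 to 0.26), Fgf18 (-2.13 to 1.22) and Hgf (-0.59 to 0.18) in the S6K1/S6K2 series. With KO they did for Fgf10 (-0.63 to 1.12), Fgf18 (-0.17 to 0.45), Fgfr2 (-0.47 to 0.12), Hgf (-0.38 to 0.76) and Met (-0.006 to 0.29). With DKO they did for Fgf7 (-0.24 to 0.14), Fgf10 (-0.79 to 0.47), Fgf18 (-0.52 to 1.07), Fgfr2 (-0.45 to 0.22) and Met (-0.18 to 0.11). Differences of the RAS effect did for Fgf7 (-0.31 to 0.057), Fgf10 (-0.25 to 1.44) and Fgf18 (-2.70 to 0.63). Those of the loss effect did for Fgf10 (-1.08 to 0.63), Fgf18 (-0.50 to 1.08), Fgfr1 (-0.073 to 0.14), Fgfr2 (-0.25 to 0.40) and Met (-0.32 to 0.0077).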

Other observations

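For each of the 8 genes tested in both series, the genes with the nearest pattern were found by Pearson's r of log2 CPM, centred within each series, over 18 libraries and among 13549 genes. The points share treatment, line and depth, and the values are a description. Nearest to Fgf2 were Snd1 (r = 0.948) and Aldh1a2, which makes retinoic acid (0.940). Nearest to Fgfr2 were the matrix genes Abi3bp (0.988) and Aebp1 (0.983). Nearest to Hgf were Pappa, a protease of insulin-like growth factor binding proteins (0.971), and Gria3 (0.945). Met was nearest to Itpr3 (0.972) and Cep170 (0.968), and Fgf10 to Fn3krp (0.939) and Sox5 (0.931). Fgfr1 was nearest to Tmem200b (0.872) and the matrix gene Postn (0.852). Fgf18 was nearest to the fibroblast marker Dcn (0.837) and to Acat2 (0.818), and Fgf7 to Taf13 (0.752) and Golph3 (0.744). Among these 8 genes themselves, which leave out Fgf21, the same measure was highest for Fgf10 with Hgf (0.799) and Fgf2 with Met (0.782) and lowest for Fgf2 with Fgfr2 (-0.757).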
